A study of Mus musculus with 25 samples.

Results

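The genes described here encode the proteins of the cytosolic ribosome. They were taken from the probe annotation of the array as every symbol of the form Rpl or Rps followed by a number, together with Rplp0, Rplp1, Rplp2 and Rpsa where present. Kinases of the Rps6k family and pseudogenes were left out. This gave 35 of 8726 annotated genes, 22 of the large subunit and 13 of the small subunit. All 35 are annotated as protein coding. One further symbol, Rps4l, was set aside as a transcribed pseudogene. Rplp0, Rplp1, Rplp2, Rpsa, Rpl5, Rps3, Rpl22l1, Rpl39, Rps27a and Rps27l were not analysed here.

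The samples were hypothalamus RNA of male Balb/c mice aged 8 weeks. For the tumor group, 1000000 cells of the mouse colon carcinoma line CT-26.WT in 300 µl of phosphate-buffered saline (PBS) were injected under the skin, and the controls received PBS alone. Tissue was taken 18, 72 or 192 h later. Each in-house printed oligonucleotide array compared a tumor sample in one fluorescent dye, Cy3 or Cy5, with a PBS sample of the same time in the other. Of 25 arrays, 19 were used, which form 5 replicates at the first time, 2 at the second and 4 at the last. Replicates 1 and 2 were polyA RNA measured in a single dye orientation, and replicates 3 to 5 were total RNA measured in both. No polyA replicate was left at 72 h. Whether RNA of single mice or of pools was used is not stated in the labels, nor is tumor size, so the spread behind each p-value may hold a technical part.

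Every cell builds proteins on ribosomes, and each ribosome holds 1 copy of nearly every ribosomal protein, so cells make these proteins in matched amounts. Their mRNAs are short and are among the most abundant in any cell, neurons included. In mammals the mRNAs carry a C followed by a run of pyrimidines at their first bases, known as the terminal oligopyrimidine (TOP) motif. Through this motif the kinase complex mTORC1, a sensor of growth factors and nutrients, sets how much of each mRNA is translated. The arrays measured mRNA amounts and not translation. In whole tissue, fewer cells of a type and less RNA per cell cannot be told apart.

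The annotated starts of these genes were searched for such a run. Start windows from the RefSeq promoter table of assembly GRCm38.p6 were found for 29 of the 35 genes, and 8 are printed because they belong to genes described below. Each window runs from 30 bases before to 25 bases after the annotated start of transcription, 5′ to 3′ on the gene's own strand. Capitals mark the longest run of at least 6 pyrimidines opened by a C. The first 5 genes hold such a run and the last 3 do not.
Rpl38 (chr11:114668550-114668604, plus strand): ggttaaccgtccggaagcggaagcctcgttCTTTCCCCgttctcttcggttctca
Rpl35 (chr2:39005107-39005161, minus strand): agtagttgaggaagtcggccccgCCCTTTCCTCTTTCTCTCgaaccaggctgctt
Rps6 (chr4:86857343-86857397, minus strand): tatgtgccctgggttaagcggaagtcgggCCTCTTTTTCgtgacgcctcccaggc
Rpl13a (chr7:45128721-45128775, minus strand): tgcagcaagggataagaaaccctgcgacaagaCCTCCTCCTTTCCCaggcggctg
Rps25 (chr9:44407684-44407738, plus strand): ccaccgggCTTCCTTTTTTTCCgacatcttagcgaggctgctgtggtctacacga
Rpl22 (chr4:152325696-152325750, plus strand): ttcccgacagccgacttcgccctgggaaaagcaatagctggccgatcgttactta
Rps16 (chr7:28350659-28350713, plus strand): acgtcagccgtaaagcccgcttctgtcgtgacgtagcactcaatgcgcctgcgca
Rpl10 (chrX:74270786-74270840, plus strand): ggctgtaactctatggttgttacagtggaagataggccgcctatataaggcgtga

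In Rpl38 the run opens at the annotated first base, in Rps6 it opens 1 base before it and in Rps25 22 bases before it. A run of this kind was present in 15 of the 29 windows (51.7%), against 37.9% of 17492 promoters in the table. The longest, of 19 bases, belonged to Rpl7a. Over the whole 300 bases of each promoter entry and on both strands, TATAAA was in 0 of 29 and in 13.3% of all promoters. The letters CCGGAAG were in 9 of 29 (31%), against 11.9% of all. AAGATGGC was in 3 of 29 (10.3%), against 3.22%, and CACGTG in 2 of 29 (6.9%), against 7.9%. A match is a description of the letters, and the windows may miss a start that lies elsewhere.

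These genes were among the brightest on the arrays, where brightness is the mean log2 intensity of both dyes, ranked as a percentile among all genes measured. Each was represented by 1 probe, except Rpl11 with 2, of which the brighter was used. Their median percentile was 91.5 to 97.1 in 8 of the 11 replicates. For 26 genes the median over the replicates other than replicates 4 and 5 of 18 h was above 90. Rps27, a zinc-binding protein of the small subunit, lay at a median percentile of 98.3 over the arrays, and Rpl36al at 98.1. Rps15, whose tail reaches toward the decoding site, lay at 97.7. At the dim end were Rps19 (28.4), Rpl29 (39.9), Rpl3l (41.5) and Rpl7l1 (46.9). Rpl3l is the form of Rpl3 made in heart and skeletal muscle, and it was measured on 6 of the 19 arrays. Rps19, the gene most often mutated in Diamond-Blackfan anemia in humans, is a core protein of every ribosome. The low rank of its probe is a measured value of that probe. Ranks compare probes as well as genes, so they give no order of mRNA amounts. Probe sequences were not used here, and ribosomal protein genes have many processed copies in the genome that a probe may also bind.

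In 3 replicates the genes were less bright. The median percentile was 61.1 in replicate 4 of 18 h, 82.4 in replicate 4 of 72 h and 82.2 in replicate 1 of 192 h. In the last, the small subunit stood at 47.8 and the large at 91.6. On the arrays of replicate 4 of 18 h, 9 of the 31 genes that were above the 50th percentile elsewhere fell below it. Rpl3 was at percentile 12.5 there and at a median of 95.1 in the replicates other than 4 and 5, and Rps29 was at 43.1 against 97.3. Across genes, the brightness on its 2 arrays followed that of the other replicates with Spearman's rho of 0.18 and 0.30, against 0.394 to 0.673 on the other 17. Rpl3, Rpl26 and Rpl34 were dim on the arrays of replicate 5 of 18 h as well, at 9.9, 4.6 and 30.8, and Rpl37a at 10.9. The members' counts above 0 and medians at 18 h, and the estimates that turned on it, are therefore given with and without replicate 4. The 18 h values of other gene lists and of the split by pyrimidine run include it. The 6 arrays left out had median percentiles of 26.4 to 64.9 for these genes, and their spot brightness did not follow the other arrays by probe name (median rho of 0.0214, beside 0.358 for used arrays of different platforms).

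**Figure D1:**
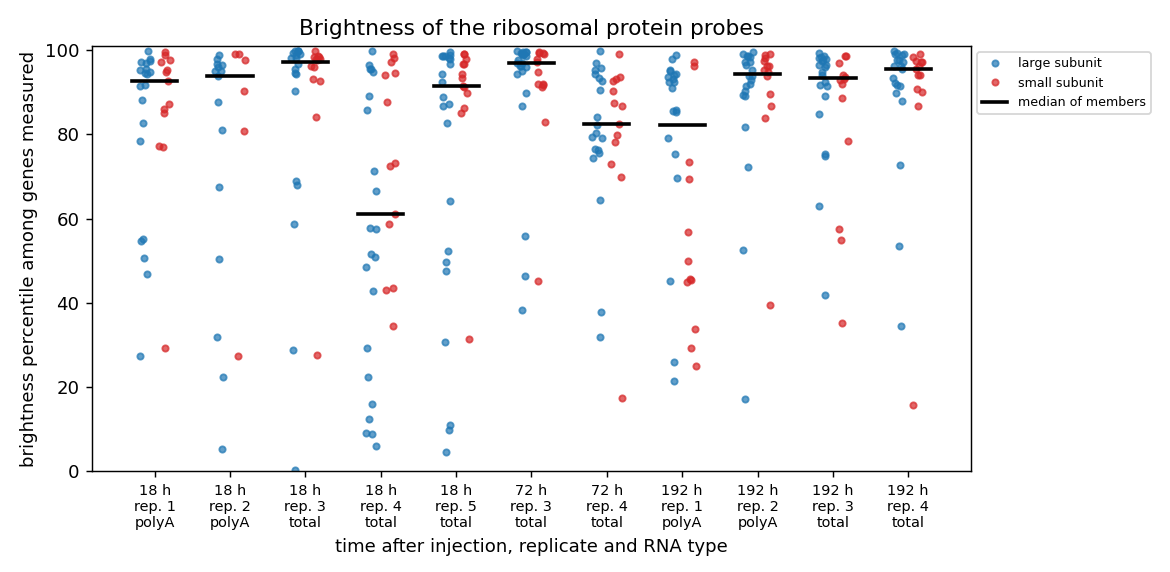
Brightness percentile of each ribosomal protein gene (points, blue for the large and red for the small subunit) among all genes measured, in each of 11 replicates, with the median as a bar. The medians lie between 91.5 and 97.1 except in replicate 4 of 18 h (61.1), replicate 4 of 72 h (82.4) and replicate 1 of 192 h (82.2).

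PolyA and total RNA gave similar brightness. The median percentile ran from 82.2 to 94.3 over the 4 polyA replicates and from 61.1 to 97.1 over the 7 total RNA replicates, so the ranges overlapped. Rpl32, Rpl36al and Rpl37 were dimmer in polyA RNA by median, at 68.2, 69.9 and 78.9 against 96.4, 97.8 and 96.9. In polyA replicate 2 of 192 h, however, they were at 90.2, 93.9 and 91.9. Other members were brighter in polyA RNA, among them Rpl35, Rps6 and Rps20, at 93.4, 97.5 and 93.2 against 74.9, 86.3 and 84.2. These are ranks on few arrays and were not tested. The tissue label was checked on its own markers. Oxytocin (Oxt) was measured on 19 of 19 arrays at a median percentile of 97.7, vasopressin (Avp) on 16 at 97.1 and melanin-concentrating hormone (Pmch) on 15 at 97.6. Sim1 was at 30.3 on 9 arrays and Hmx3 at 20.8 on 7.

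All changes below are log2 ratios of tumor over PBS, normalised within each scan by an intensity-dependent loess curve. A value of 0 is no difference. The direction is likely rather than settled, because the files name the channels only A and B and the dyes were read from the order of the labels. Estimates and standard errors (SE) come from 1 limma model over all 11 replicates with a term for dye orientation, fitted on all genes. A gene was called at a Benjamini-Hochberg adjusted p under 0.05 over all genes tested. Because of the dye term an estimate can differ from the mean of the replicates, and a lone polyA value of a gene is largely taken up by that term.

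No ribosomal protein gene was called at any time. Of the members tested, 33 at 18 h, 23 at 72 h and 32 at 192 h, 0 were called, and the share of all genes called was 0% of 5064, 0% of 1933 and 0% of 2801 (limma). At an unadjusted p under 0.05 the members numbered 1, 0 and 0, and all genes 272 (5.37%), 32 (1.66%) and 117 (4.18%). The median SE of a member was 0.12 at 18 h, 0.16 at 72 h and 0.12 at 192 h. Most estimates lay within 1 SE of 0, and the description that follows rests on how many lay on each side of it.

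**Figure D2:**
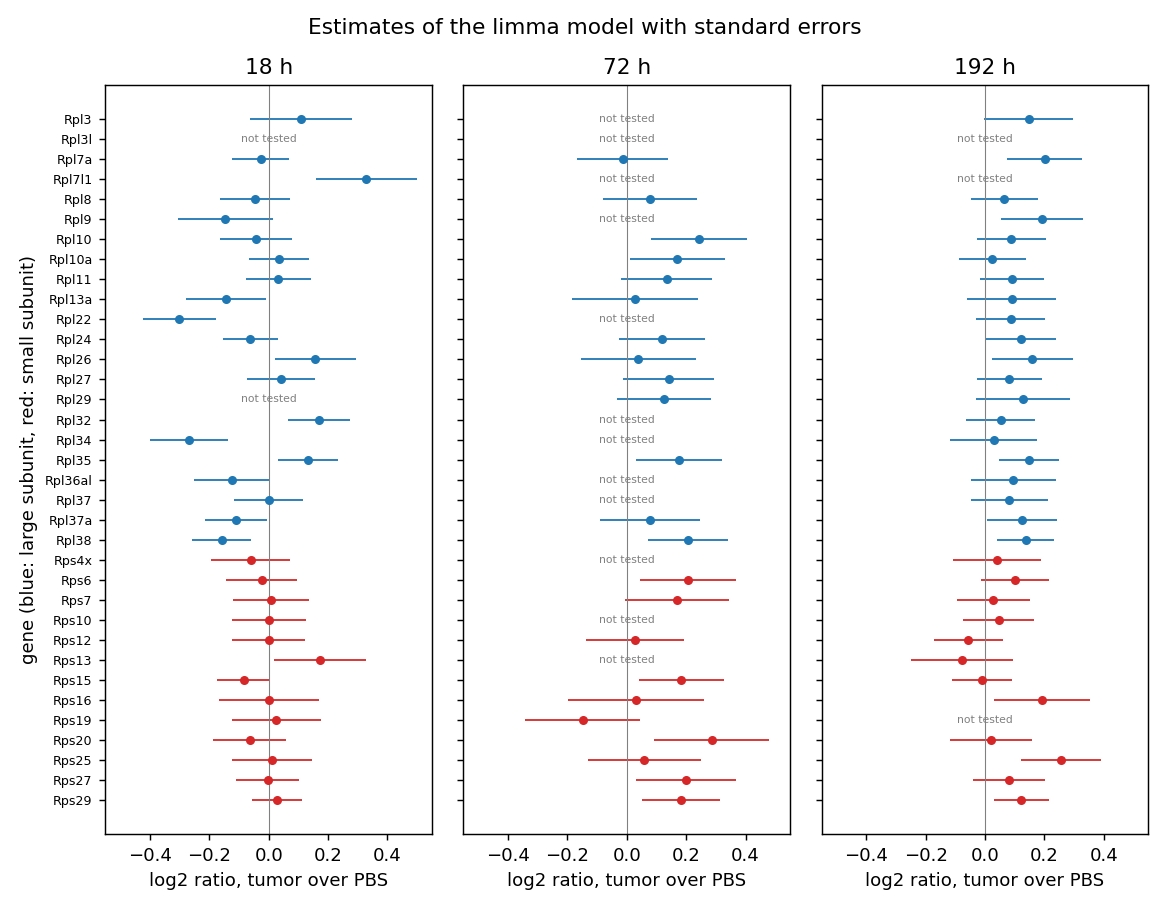
Log2 ratio of tumor over PBS for each ribosomal protein gene at 18, 72 and 192 h, as the limma estimate (point) with its SE (bar), blue for the large and red for the small subunit. Estimates scatter on both sides of 0 at 18 h, 21 of 23 lie above 0 at 72 h and 29 of 32 at 192 h.

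At 18 h the ribosomal protein genes were split evenly. The estimate was above 0 for 17 of 33, with a median of 9.7e-05, beside 49.3% of all genes above 0 with a median of -0.0025. The large subunit had 9 of 20 above 0 with a median of -0.03, and the small subunit 8 of 13 with a median of 0.0011. Rpl3l and Rpl29 had too few values to be tested. The even split hides replicates that differed from each other. The median over the members was -0.07 in replicate 1, 0.11 in replicate 2, -0.10 in replicate 3, 0.28 in replicate 4 and -0.11 in replicate 5. Replicate 4, which stood apart in brightness, had 22 of 30 members above 0, and 11 of its 12 small subunit members. In replicates 3 and 5 only 6 of 31 and 13 of 33 members were above 0. Without replicate 4 of 18 h, 10 of 33 estimates were above 0 and the members' median was -0.13 against that of all genes, where all 5 replicates gave 0.0026. The large subunit then had 8 of 20 above 0 with a median of -0.10, and the small subunit 2 of 13 with a median of -0.14. Still 0 genes were called in limma, and 3 members, Rpl7l1, Rpl13a and Rpl37a, had an unadjusted p under 0.05. The share of all genes at that threshold was not counted in this setting. Rpl7l1 was then above 0 and Rpl13a below it. Rpl37a was at -0.39 in both replicates 1 and 5, with its probe at percentiles 97.2 and 10.9. Without replicate 5 the difference from all genes was 0.05.

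**Figure D3:**
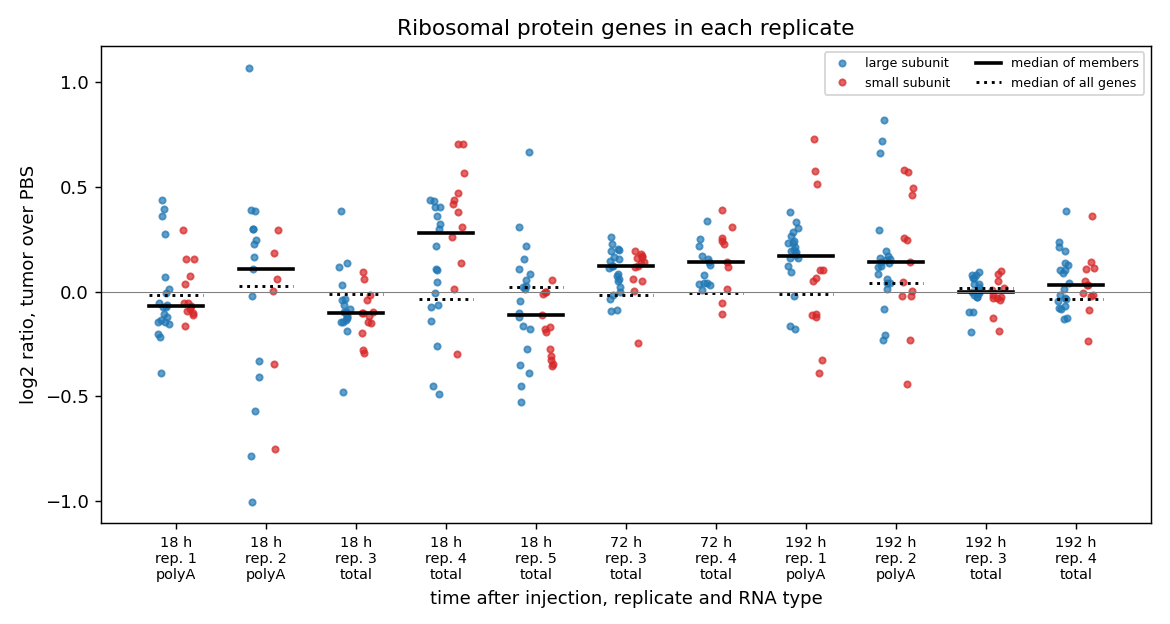
Log2 ratio of tumor over PBS of each ribosomal protein gene (points) in each replicate, with the median of the members as a solid bar and that of all genes as a dotted bar. The member medians run from -0.11 to 0.28 at 18 h, are 0.12 and 0.14 at 72 h, and are 0.17, 0.14, -0.0019 and 0.03 at 192 h.

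Rpl22 was the only member with an unadjusted p under 0.05 at 18 h. It is a protein of the large subunit that cells can do without for general translation but that mouse T cells need to develop. Its log2 ratio was -0.11, -0.48, -0.49 and 0.06 in replicates 1, 3, 4 and 5, with no value in replicate 2. The estimate was -0.30 ± 0.12 (SE, n = 4), with an unadjusted p of 0.0320 and an adjusted p of 0.888 in limma. It was thus below 0 in 3 of 4 replicates, and total RNA replicates held both the lowest and the highest value. Without replicate 4 the estimate was -0.23 ± 0.14 (SE, n = 3), with an unadjusted p of 0.1297 and an adjusted p of 0.846 in limma. Its probe was among the dimmer ones, with a median percentile of 71.3.

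Rpl38 was the only member with the same sign in every replicate at 18 h, 1 of 33 (3.03%) where 16.4% of all genes had this. Loss of 1 copy of Rpl38 in mice disturbs the pattern of the axial skeleton through translation of Hox mRNAs. Its log2 ratio was -0.08, -0.10, -0.06 and -0.35 in replicates 1, 3, 4 and 5, with an estimate of -0.16 ± 0.10 (SE, n = 4), or -0.19 ± 0.11 without replicate 4. All 4 values were below 0 and 3 of them were within 0.10 of it, and with median centring in place of loess the estimate was 0.0002. At 72 h it was 0.26 and 0.16, and at 192 h it was 0.21, 0.17, 0.04 and 0.13. The values of the later times lay above all those of 18 h, a separation that was not counted over all genes. In all 7 dye-swapped pairs behind these means, however, its sign turned with the dye, which no other member measured in 7 pairs did. In replicate 3 of 72 h it was 0.75 with tumor in Cy5 and -0.23 with tumor in Cy3.

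Other members at the ends of the 18 h range varied widely between replicates. Rpl7l1 was highest at 0.33 ± 0.17 (SE, n = 4), with replicate values from -0.14 to 1.07. Without replicate 4 it was 0.48 ± 0.18 (SE, n = 3), with an unadjusted p of 0.0327 and an adjusted p of 0.803 in limma. Rps13, Rpl32, Rpl26 and Rpl35 followed at 0.17, 0.17, 0.16 and 0.13. Rps13 rested on replicate 4, where it was at 0.70, and its estimate without that replicate was -0.03. Rpl34 was at -0.27 ± 0.13 (SE, n = 5), with a value of -1.002 in replicate 2 and from -0.45 to 0.12 in the others. Replicate 2, which also gave the 1.07 of Rpl7l1, was 1 array with 32.9% of genes measured. Its SD over all genes was 0.90, against 0.22 to 0.39 in the other replicates of 18 h. Rpl9 and Rpl13a were at -0.15 and -0.14. Rpl13a also serves outside the ribosome in the silencing of inflammatory mRNAs in human myeloid cells. Its replicates ran from -0.79 in replicate 2 to 0.43 in replicate 4. Without replicate 4 it was at -0.29 ± 0.12 (SE, n = 4), with an unadjusted p of 0.0398 and an adjusted p of 0.803 in limma. The spread over replicates of a member had a median SD of 0.25 at 18 h, against 0.08 at 72 h and 0.18 at 192 h.

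At 72 h nearly all members measured lay slightly above 0. The count was 21 of 23, 12 of 13 of the large and 9 of 10 of the small subunit, beside 52.7% of all genes. The median was 0.13 for the members, 0.13 for the large subunit, 0.18 for the small subunit and 0.013 for all genes. Both replicates gave this, with member medians of 0.12 and 0.14 and with 28 of 34 and 21 of 23 members above 0. These are means of both dye orientations. In replicate 3, 28 of 34 members were above 0 with tumor in Cy5 and 7 with tumor in Cy3, and 4 in both. In replicate 4 it was 18 and 16 of 23, and 11 in both. The same sign in both replicates was found for 19 of 23 members (82.6%), 18 above and 1 below 0, against 53.1% of all genes. The members not tested at 72 h were Rpl3, Rpl3l, Rpl7l1, Rpl9, Rpl22, Rpl32, Rpl34, Rpl36al, Rpl37, Rps4x, Rps10 and Rps13. A median over those that remain is not one over all members. The size of the lean depended on the processing. The members' median was 0.12 above that of all genes, and it was 0.06 above with block-wise loess (17 of 23 above 0), 0.04 with the authors' values (16 of 20) and 0.24 with median centring (22 of 23). With all 25 arrays, where all 35 members could be tested, 20 of 35 were above 0 and the difference was 0.09.

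The highest estimates at 72 h were small against their errors. Rps20, a protein of the head of the small subunit, was at 0.18 and 0.39 in replicates 3 and 4, with an estimate of 0.29 ± 0.19 (SE, n = 2). Rpl10, which joins the large subunit late in its assembly, was at 0.15 and 0.34, with 0.24 ± 0.16 (SE, n = 2). Rpl38 had the smallest unadjusted p of the members, 0.149 in limma, with an adjusted p of 0.991 at 0.21 ± 0.13 (SE, n = 2). These genes were above 0 in both replicates. Rps6, the protein that S6 kinases phosphorylate downstream of mTORC1, was at 0.17 and 0.24, and Rps27 at 0.14 and 0.26. Rpl11, which with Rpl5 and the smallest ribosomal RNA binds the p53 regulator Mdm2, was at 0.05 and 0.22. Rps25, used by viral mRNAs to start translation, was at 0.0022 and 0.12. At the low end, Rps19 was at -0.24 and -0.05, and Rpl7a at -0.03 and 0.0068. Rps12 was at 0.16 and -0.11, Rpl13a at 0.02 and 0.03 and Rps16 at 0.05 and 0.01.

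At 192 h the members were again mostly above 0, and this count depended on the scaling. It was 29 of 32, with all 20 of the large subunit and 9 of 12 of the small subunit above 0, beside 41.9% of all genes. An estimate above 0 did not always mean most replicates above 0. Rpl36al was at -0.16, 0.82, -0.19 and -0.08 in replicates 1 to 4. Rpl7a was below 0 in 2 of 3 replicates and Rps20 in 3 of 4. The median was 0.09 for the members, 0.09 for the large subunit, 0.04 for the small subunit and -0.03 for all genes. With each scan centred on its median and no loess curve, 11 of 32 members were above 0, while the median of all genes moved to -0.14. Relative to all genes the members' median was then 0.08 higher, against 0.12 with loess. The same sign in every replicate was found for 7 of 32 members (21.9%), beside 14.3% of all genes, and all 7 were above 0. They were Rpl3, Rpl27, Rpl29, Rpl35, Rpl37a, Rpl38 and Rps29. Rpl3l, Rpl7l1 and Rps19 were not tested.

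The values at 192 h were higher in polyA RNA than in total RNA. The member median was 0.17 in replicate 1 and 0.14 in replicate 2, both polyA, and -0.0019 in replicate 3 and 0.03 in replicate 4, both total RNA. Set against the median of all genes, it was 0.18 and 0.10 in replicates 1 and 2, and -0.02 and 0.07 in replicates 3 and 4. On that scale replicates 2 and 4 lay close together. Of the members 24 of 32 and 27 of 34 were above 0 in the polyA replicates, and 15 of 30 and 18 of 32 in the total RNA replicates. With total RNA alone, 18 of 29 estimates were above 0 and the difference from the median of all genes was 0.04. At 18 h the polyA replicates had medians of -0.07 and 0.11, which lay within the range of the total RNA replicates. The polyA replicates of 192 h had opposite dye orientations, with tumor in Cy5 in replicate 1 and in Cy3 in replicate 2. Their member medians were 0.17 and 0.14, or 0.18 and 0.10 against all genes. RNA type, replicate number and array platform go together and cannot be told apart, because no polyA array shared a platform with a total RNA array. Without replicate 1 of 192 h, where the small subunit was dim, 23 of 29 estimates were above 0 and the difference from all genes was 0.09.

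Among the members that held their sign, the sizes were small. Rpl35 was at 0.24, 0.15, 0.10 and 0.10 in replicates 1 to 4, with an estimate of 0.15 ± 0.10 (SE, n = 4). Rps29, a zinc-binding protein of the small subunit, was at 0.10, 0.26, 0.02 and 0.11, with 0.12 ± 0.09 (SE, n = 4). Rpl37a, a zinc-binding protein of the large subunit, was at 0.16, 0.16, 0.04 and 0.14. In all 3 genes the lowest value belonged to replicate 3. Rpl3, which reaches toward the peptidyl transferase center, was at 0.23, 0.14, 0.0031 and 0.22.

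Of the 5 members with the highest estimates at 192 h, 4 had their highest value in a polyA replicate. The values of all genes were also more spread there, with an SD of 0.56 and 0.48 in replicates 1 and 2. In the total RNA replicates 3 and 4 it was 0.21 and 0.28. The part of this spread in the members' highest values was not tested. Rps25 was at 0.57, 0.50, -0.04 and -0.0050 in replicates 1 to 4, with an estimate of 0.26 ± 0.13 (SE, n = 4) and an unadjusted p of 0.0817 (adjusted p = 0.999, limma). Rpl7a was at -0.02, 0.66 and -0.03 in replicates 1, 2 and 4, with an estimate of 0.20 ± 0.13 (SE, n = 3). Rps16, whose tail touches the tRNA in the peptidyl site, was at 0.73, 0.05, 0.01 and -0.01. In these 3 genes the 2 total RNA values, or the single one of Rpl7a, lay within 0.05 of 0. Rpl9 was at 0.29, 0.19, -0.10 and 0.39, and Rpl26 at 0.09, 0.72, -0.10 and -0.08. At the low end were Rps13 (-0.08 ± 0.17, SE, n = 3), Rps12 (-0.06 ± 0.12, SE, n = 4) and Rps15 (-0.01 ± 0.10, SE, n = 4), with Rps20 at 0.02 and Rpl10a at 0.02. All 5 had values on both sides of 0.

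Other well-known members had replicates on both sides of 0 at 192 h. Rps6 was at 0.07, 0.0011, -0.02 and 0.36, with an estimate of 0.10 ± 0.11 (SE, n = 4). Rpl11 was at 0.26, 0.08, -0.02 and 0.04, Rpl13a at 0.30, 0.12, 0.07 and -0.13, and Rpl10 at 0.33, 0.12, -0.03 and -0.07. Rpl22 was at 0.38 in replicate 1 and between -0.03 and 0.01 in the others. Rps4x, which has a Y-linked counterpart in humans, was at 0.10, -0.02, 0.05 and 0.03. Their highest values came from replicate 1 in 5 genes and from replicate 4 in Rps6.

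In several total RNA replicates the members' ratios differed more between dye orientations than they differed from 0. Each such replicate was hybridised in both orientations, and the ratios were turned to tumor over PBS before comparison. Across all genes, the ratios of the orientations of a replicate correlated with Pearson's r from -0.558 to 0.045, below 0 in 6 of the 7 replicates. In replicate 3 of 192 h the member median was 0.23 with tumor in Cy5 and -0.19 with tumor in Cy3, and 3 of 30 members had the same sign in both. In replicate 3 of 72 h it was 0.34 and -0.07, with 7 of 34 of the same sign. The shift of the members with the dye in these replicates was thus larger than the mean of both orientations, which was -0.0019 and 0.12. In replicate 4 of 72 h it was 0.13 and 0.06, and 11 of 23 members were above 0 in both. In replicate 4 of 192 h it was 0.08 and -0.03.

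At 18 h the member median had the same sign in both orientations of each replicate. The member median was -0.06 with tumor in Cy5 and -0.16 with tumor in Cy3 in replicate 3, where 17 of 31 members were below 0 in both. It was 0.24 and 0.11 in replicate 4, with 16 of 30 above 0 in both, and -0.24 and -0.04 in replicate 5, with 12 of 33 below 0 in both. Over all genes, 36.3% to 53.8% had the same sign in both orientations of a replicate. The dye term of the model rested on the polyA replicates alone, because both orientations were averaged in total RNA. It does not describe the shifts between orientations given above. For this term limma called 0 of 34 members, beside 204 of 5409 genes (3.77%). Its smallest unadjusted p among the members was 0.0151 for Rps10, with an adjusted p of 0.156 (limma).

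**Figure D4:**
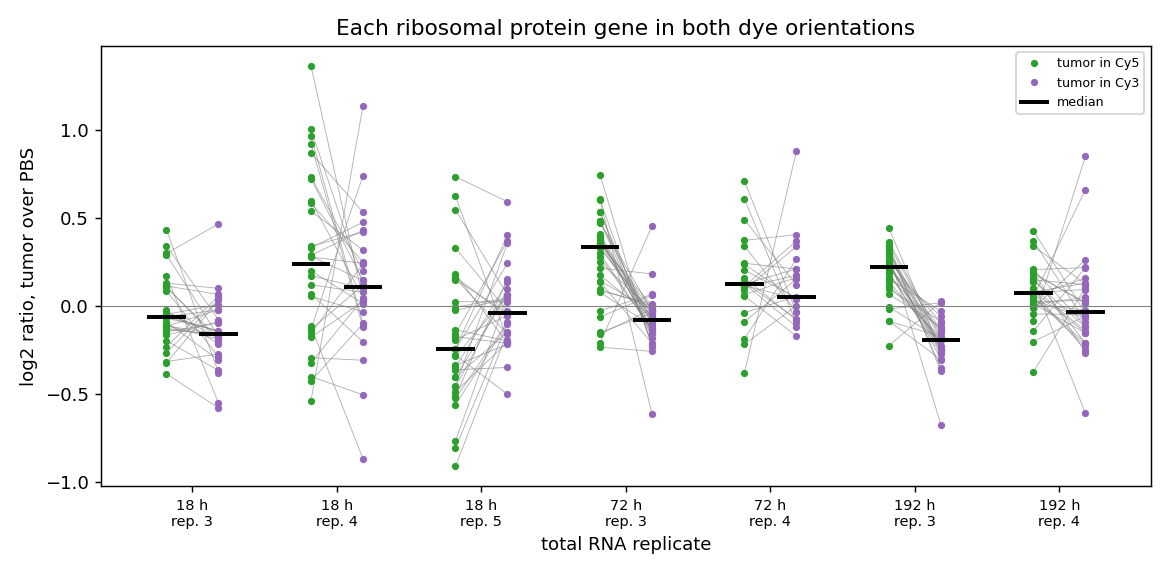
Log2 ratio of tumor over PBS of each ribosomal protein gene in the 7 total RNA replicates, with tumor in Cy5 (green) and in Cy3 (purple), a line joining the values of a gene and a bar at each median. In replicate 3 of 192 h the medians are 0.23 and -0.19, and in replicate 3 of 72 h 0.34 and -0.07.

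Between times, the members lay higher at 72 h and 192 h than at 18 h, without a gene being called. For 192 h minus 18 h, 27 of 31 members lay above 0 (15 of 31 with median centring in place of loess, where all genes shifted to -0.13). Their median was 0.09, beside -0.03 for all genes, of which 45.6% were above 0. For 72 h minus 18 h, 20 of 22 were above 0 with a median of 0.15, beside 50.5% of all genes. The genes called were 0% of 2506 and 0% of 1644 in limma, with 146 (5.83%) and 27 (1.64%) at an unadjusted p under 0.05. Both contrasts share the 18 h replicates. Without replicate 4 of 18 h the members' median against all genes was 0.22 for 192 h minus 18 h and 0.22 for 72 h minus 18 h, where all replicates gave 0.12 and 0.14. Without replicate 5 of 18 h the first was 0.07, with 22 of 29 above 0. With all 25 arrays, including the 6 that did not follow the others in brightness, the second was 0.05, with 20 of 33 above 0. Within total RNA alone it was 0.05 for 192 h minus 18 h, with 13 of 22 above 0, and 0.16 for 72 h minus 18 h, with 15 of 18.

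Single members in these contrasts reached at most an unadjusted p just under 0.05. For 192 h minus 18 h this was Rpl22, at 0.39 ± 0.17 (SE, n = 8), with an unadjusted p of 0.0433 and an adjusted p of 0.803 in limma, and at 0.32 ± 0.18 (SE, n = 7) without replicate 4 of 18 h. Rpl9, Rpl34, Rpl38 and Rps25 followed at 0.34, 0.30, 0.30 and 0.24, and the lowest were Rps13 at -0.25, Rpl32 at -0.11 and Rps12 at -0.06. Rpl10a was at -0.01 and Rpl26 at 0.0018. For 72 h minus 18 h it was Rpl38, at 0.37 ± 0.17 (SE, n = 6), with an unadjusted p of 0.0496 and an adjusted p of 0.998 in limma, and at 0.40 ± 0.16 (SE, n = 5) without replicate 4 of 18 h. Rps20, Rpl10, Rps15 and Rps6 followed at 0.35, 0.29, 0.27 and 0.23. The lowest were Rps19 at -0.17, Rpl26 at -0.12, Rpl7a at 0.01, Rps12 at 0.03 and Rps16 at 0.03.

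Between 72 h and 192 h the members' median was close to that of all genes. For 192 h minus 72 h, 8 of 22 lay above 0, beside 40% of 1305 genes, and both medians were -0.05. With median centring in place of loess, 1 of 22 was above 0 and all genes shifted to -0.18. Genes called were 0% in limma, with 37 (2.84%) at an unadjusted p under 0.05, none of them a member. Rpl7a, Rps25, Rps16, Rpl26 and Rpl13a were highest, from 0.22 down to 0.06, and Rps20, Rps15, Rpl10, Rpl10a and Rps7 lowest, from -0.27 up to -0.14. Every estimate was within 2 SE of 0.

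Over the average of the 3 times, 19 of 21 members lay above 0 (14 of 21 with median centring), beside 51.9% of all genes. Their median was 0.08, and that of all genes 0.0037. Called were 0 members and 0% of 1217 genes in limma, with 22 genes (1.81%) at an unadjusted p under 0.05. Rpl35 was the member among these 22, at 0.15 ± 0.07 (SE, n = 10) with an unadjusted p of 0.0452 and an adjusted p of 0.996. It was above 0 in 8 of 10 replicates. Rpl26, Rps29, Rps25 and Rpl10 followed at 0.12, 0.11, 0.11 and 0.10, and Rps12, Rpl13a, Rps15, Rpl37a and Rpl8 were lowest, from -0.0094 to 0.03. Without replicate 4 of 18 h, 16 of 21 were above 0 and the difference from all genes was 0.05, against 0.07 with it.

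Because these genes are bright, other bright genes were set beside them. In the brightest 10% of the genes tested, without the members, 102 of 173 genes (59%) were above 0 at 72 h with a median of 0.05. At 192 h it was 110 of 252 (43.7%) with a median of -0.02, and at 18 h 226 of 477 (47.4%) with a median of -0.0059. The members' medians of 0.13 at 72 h and 0.09 at 192 h lay above both. These are counts over genes that share arrays and carry no test.

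Other gene groups of the same machinery were counted from lists of known members. Of translation factors and other mRNAs of the TOP class, 8 were in the probe annotation, and Eef1a1, Eef2 and Pabpc1 were among those absent. Above 0 were 4 of 4 tested at 72 h (median 0.09), 4 of 4 at 192 h (0.08) and 2 of 6 at 18 h (-0.06). At 72 h these were Npm1, a nucleolar chaperone, at 0.19 ± 0.37 (SE, n = 2), Tpt1 at 0.12, the initiation factor subunit Eif3e at 0.06 and Hnrnpa1 at 0.03. At 192 h Hnrnpa1 and Tpt1 were highest at 0.15 and 0.08, and Fau, whose product includes a small subunit protein, was at 0.0066. Npm1 was at 0.07 then, with 1 of 4 replicates above 0, and none of the 4 genes held its sign in every replicate of 192 h. At 18 h they ran from Npm1 at -0.39 and Eif3e at -0.34 to Eif3f at 0.05 and Tpt1 at 0.18. None was called.

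Ribosome biogenesis factors, which assemble the subunits, showed no lean to either side. Above 0 were 11 of 19 at 18 h (median 0.04), 3 of 6 at 72 h (-0.02) and 5 of 10 at 192 h (-0.02). The highest at 18 h were Polr1b, a subunit of RNA polymerase I, at 0.27, and Pes1 at 0.22, and the lowest Gar1 at -0.34 and Nop10 at -0.34, both parts of the particles that modify ribosomal RNA. At 72 h Nop10 and Nop16 were at 0.15 and 0.09, and Ubtf and Rrp1 at -0.14 and -0.23. At 192 h Emg1 and Polr1b were at 0.35 and 0.24, and Pes1 and Bysl at -0.25 and -0.26. In the mTORC1 list 6 of 10, 2 of 3 and 3 of 5 were above 0. At 18 h Deptor and Lamtor2 were at 0.12 and 0.09, and Tsc1 and Tsc2 at -0.13 and -0.29. Rragc, a GTPase that recruits mTORC1 to the lysosome, was at 0.42 ± 0.20 (SE, n = 2) at 72 h and at 0.18 at 192 h. Tsc2 was at 0.04 at 72 h. Eif4e, the cap-binding factor, was at -0.19 at 72 h and at 0.35 ± 0.14 (SE, n = 3) at 192 h, where Rheb and Lamtor3 were at -0.02 and -0.20. None of these genes was called in limma, where the adjusted p was 0.888 or more.

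Ribosomal proteins of the mitochondrion served as a second ribosome. Above 0 were 24 of 44 at 18 h (median 0.0032), 10 of 20 at 72 h (0.0086) and 9 of 26 at 192 h (-0.06). The highest and lowest were Mrps14 (0.31), Mrpl13 (0.29), Mrpl17 (-0.36) and Mrpl48 (-0.45) at 18 h. At 72 h they were Mrps5 (0.24), Mrpl15 (0.12), Mrpl50 (-0.20) and Mrpl53 (-0.21). At 192 h they were Mrpl13 (0.23), Mrpl39 (0.18), Mrpl52 (-0.33 ± 0.13, SE, n = 3) and Mrpl28 (-0.36 ± 0.12, SE, n = 3). At 72 h and 192 h a smaller share of these genes than of the cytosolic ones was thus above 0. Subunits of oxidative phosphorylation, also bright, had 25 of 48 above 0 at 18 h (0.0038), 23 of 30 at 72 h (0.08) and 22 of 43 at 192 h (0.0018). In replicate 4 of 18 h, 30 of 36 of them were above 0 with a median of 0.34. The members had 22 of 30 and 0.28 there. Ndufv2 (0.31), Ndufa4 (0.22), Cox4i1 (-0.25) and Ndufa7 (-0.45) marked the range at 18 h. Ndufa4 (0.34), Ndufa3 (0.33), Ndufb11 (-0.08) and Cox8a (-0.22) did so at 72 h, and Ndufv2 (0.24), Ndufa10 (0.20), Ndufa3 (-0.16) and Uqcr11 (-0.23) at 192 h. None of these genes was called, and the difference between the lists was not tested.

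Several lists of cell type markers had medians as far from 0 as the members, some on the other side of it. At 192 h, 0 of 5 oligodendrocyte and myelin genes were above 0 (median -0.13), 1 of 5 astrocyte genes (-0.13), 2 of 8 neuronal genes (-0.03), 0 of 2 endothelial and mural genes (-0.14) and 0 of 1 microglial gene. At 72 h, 3 of 4 oligodendrocyte genes (0.02), 0 of 2 astrocyte genes (-0.04), 3 of 7 neuronal genes (-0.03) and 0 of 2 microglial genes (-0.10) were above 0. Of the smaller lists, blood cell genes had 2 of 3 above 0 at 192 h (0.01) and 0 of 2 at 72 h (-0.36), and pituitary genes 0 of 2 and 2 of 3. At 18 h, 4 of 6 oligodendrocyte (0.02), 2 of 5 astrocyte (-0.04), 4 of 10 neuronal (-0.01), 3 of 6 microglial (-0.05) and 2 of 4 endothelial genes (0.03) were above 0. So were 1 of 4 choroid plexus and ependymal (-0.08), 2 of 2 blood cell (0.23) and 2 of 2 pituitary genes (0.22). Single markers lay farther out at 18 h, chosen here for their size. The synaptic vesicle gene Syp was at -0.78 ± 0.28 (SE, n = 3), with 1 of 3 replicates above 0. The hypothalamic gene Pmch was at -0.54 ± 0.19 (SE, n = 3) and Dynlrb2 at -0.53 ± 0.12 (SE, n = 3). The neuronal gene Map2 was at -0.47 ± 0.17 (SE, n = 4), with 1 of 4 replicates above 0. The endothelial gene Robo4 was at 0.46 ± 0.10 (SE, n = 5). Each had an adjusted p of 0.888 in limma. No marker was called at any time, and the part of tissue makeup in the members' values was not tested. Over the replicates, the list median ran from -0.23 to 0.14 for neurons, from -0.38 to 0.16 for astrocytes, from -0.43 to 0.24 for microglia and macrophages and from -0.38 to 0.29 for oligodendrocytes. It ran from -0.26 to 1.19 for blood cells, from -0.26 to 0.69 for pituitary, from -0.38 to 0.66 for choroid plexus and ependyma and from -0.44 to 0.32 for endothelial and mural cells, lists of at most 6 measured genes.

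A pyrimidine run in the start window did not sort the members in a steady way. The split took a run anywhere in the 55 bases, so it is not a split by TOP motif. In Rps7 the run opened 29 bases before the annotated start, and in Rpl11 14 bases after it. At 72 h the median was 0.17 for the 12 tested genes with a run, 11 of them above 0, and 0.08 for the 7 without, 6 of them above 0. At 192 h it was 0.08 for 15 genes with a run and 0.09 for 11 without, with 12 and 11 above 0. At 18 h it was 0.0001 and -0.04. Rpl38, Rpl35, Rps6, Rpl13a and Rps25, whose windows hold a run, were at 0.21, 0.18, 0.21, 0.03 and 0.06 at 72 h, and Rps16 and Rpl10, whose windows do not, at 0.03 and 0.24.

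**Figure D5:**
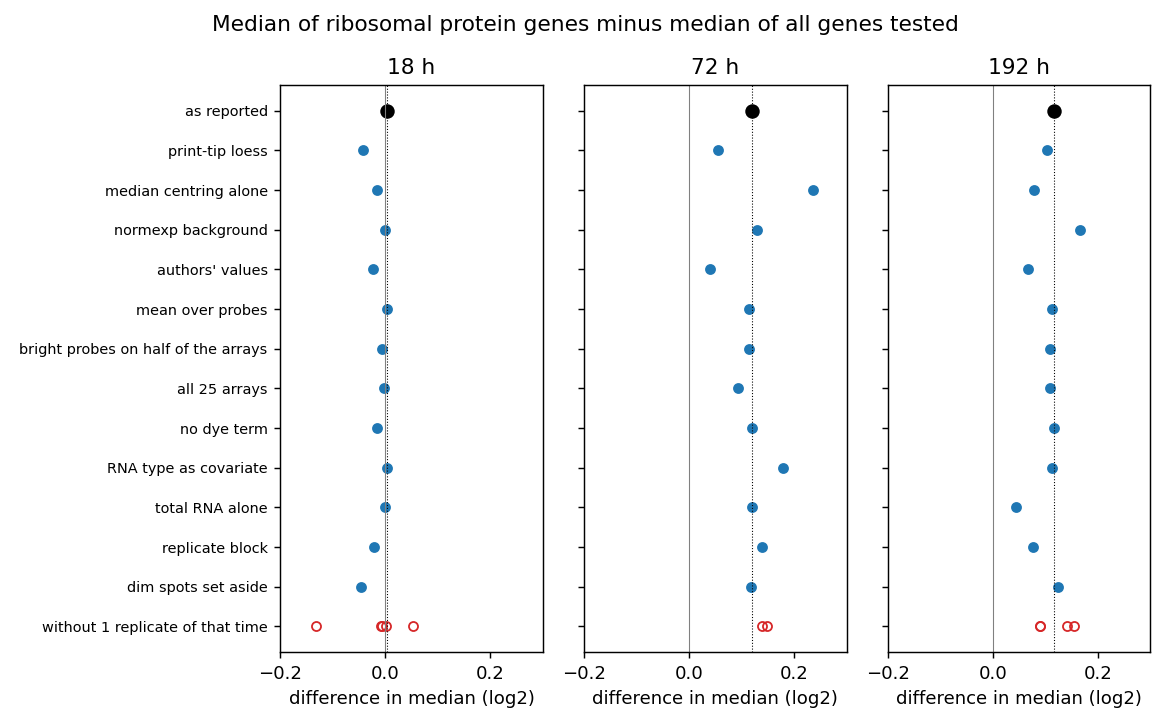
Median log2 ratio of the ribosomal protein genes minus the median of all genes tested at 18, 72 and 192 h, as reported (black), under each other setting (blue) and without each replicate of that time in turn (red circles). The values run from 0.04 to 0.24 at 72 h and from 0.04 to 0.17 at 192 h, and lie on both sides of 0 at 18 h.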

How the data were processed

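Scans of each array, 3 in number, were read from separate files that list 10080 spots. Per the file headers, the deposited intensities of channels A and B were already background-subtracted, and 35.8% were 0. The scanner software is not given in the sources used here. A spot was used where both channels were above 0. Spots were put in the order of their print blocks before probe names were attached. Per scan, log2 ratios of channel B over A were normalised by limma loessFit (span 0.3, 4 iterations). Means were taken over scans, then over arrays, and a total RNA replicate needed both orientations. The authors' deposited values per spot were log ratios, read as natural log. Neither the base nor the normalization of these ratios is stated, and they entered as an alternative alone.

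A gene was represented by its brightest probe and tested where at least 3 replicates of 18 h, 2 of 72 h or 3 of 192 h had a value. Tests used limma 3.58.1 (lmFit and eBayes) with data.table (version 1.17.8) in R 4.3.3, with Benjamini-Hochberg adjustment over all genes of each of 7 comparisons, tested on simulated data. Left out were 6 of 25 arrays, by a rule given with the gene set: 5 arrays of 72 h replicates 1 and 2, and 1 array of 192 h replicate 1. Between 2690 and 8533 genes were measured per used array. Precision is limited by how many arrays there are.

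The members and lists were chosen with earlier results of these data known. Named were the 5 highest and 5 lowest members of each comparison, any member with a p under 0.05, a set of well-known members and the 2 highest and 2 lowest genes of each pathway list. Between 18 h and 192 h, samples numbered 1 and 2, which share RNA type and dye orientation, deviated together (r of 0.549 and 0.387), and those numbered 3 and 4 did not (r of -0.06 and -0.046), so numbers were not treated as pairs. Alternatives were block-wise loess, median centring, normexp background, the authors' values, mean over probes, bright probes alone, all arrays, other model terms, total RNA alone, a replicate block and leaving out each replicate. An alternative that sets dim spots aside was chosen after seeing the data.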

Additional observations from a re-analysis of the deposited data

Results flagged for a closer look

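In 38 groups of 4 or 5 replicates, 1 replicate was checked against the others for a gap out of proportion to the range, which chance gives in about 1 of 20 groups. Rpl38 at 18 h was at -0.35 in replicate 5 and between -0.10 and -0.06 in the others. Rps16 at 192 h was at 0.73 in replicate 1 and between -0.01 and 0.05 in the others. Rpl22 at 192 h was at 0.38 in replicate 1 and between -0.03 and 0.01 in the others. The brightness percentile of the members was 61.1 in replicate 4 of 18 h, against 91.5 to 97.1, and 82.2 in replicate 1 of 192 h, against 93.4 to 95.6. Rps16 and Rpl22 stood apart in the same replicate of 192 h whose small subunit probes were dim.

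Opposite signs in every replicate of 2 times were looked for in 64 pairs of times among the named members, and 1 gene had them. The share of all genes with such signs was not counted. Rpl38 was below 0 in 4 of 4 replicates at 18 h and above 0 in 2 of 2 at 72 h and 4 of 4 at 192 h. The difference was 0.37 ± 0.17 (SE) for 72 h minus 18 h and 0.30 ± 0.14 (SE) for 192 h minus 18 h. Neither passed in limma, with adjusted p of 0.998 and 0.803, and in all 7 dye-swapped pairs the sign of Rpl38 turned with the dye.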

How the results depend on the processing

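No member was called in any comparison under any alternative run, and none could therefore reverse. The sign changed under at least 1 alternative for 68 of 99 named member results. Values below are the members' median minus that of all genes. At 72 h it was 0.12, and it moved by more than the SD between the 2 replicates (0.014) to 0.0558 with block-wise loess (17 of 23 above 0), 0.236 with median centring, 0.0398 with the authors' values, 0.0931 with all 25 arrays (20 of 35 above 0), 0.179 with RNA type as a covariate and 0.139 with the replicate block (18 of 23 above 0). Median centring gave 0.32 for 72 h minus 18 h and -0.13 for 192 h minus 72 h, against 0.14 and -0.0034. The cause was not tested. Leaving out each replicate in turn gave -0.13 to 0.05 at 18 h, 0.12 to 0.15 at 72 h, 0.09 to 0.15 at 192 h, 0.05 to 0.09 for the average, 0.07 to 0.22 for 192 h minus 18 h, 0.10 to 0.22 for 72 h minus 18 h and -0.04 to 0.03 for 192 h minus 72 h. A lone 72 h replicate is assumed to vary like those of other times. Of all genes, 0 were called, except 2 at 18 h with RNA type as a covariate, 4 at 72 h with all 25 arrays, 1 at 192 h with total RNA alone, and 0 to 1, 0 to 3 and 0 to 1 at 72 h, at 192 h and for 72 h minus 18 h without 1 replicate. The replicate block changed no call, and 2 of 4 replicates of 18 h correlated best with their own number at 192 h.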
